A study of Mus musculus with 12 samples.

Results

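Pou5f1, Nanog, Sox2, Sall4 and Utf1, the core transcription factors of the pluripotent state, were followed in mouse embryonic stem (ES) cells that were differentiated with retinoic acid for 3 days or left undifferentiated. The members are 5 of the 21179 named genes on the array, and every probe named for one of them was taken, which gave 6 of 41174 probes: 2 for Sall4 and 1 for each of the other genes. The Nanog probe has no symbol in the deposited tables and was named from its description. RNA of 3 samples per group was amplified, labelled with the dye Cy3 and hybridised to 1-colour arrays, 2 technical arrays for each sample. The labels give no ES cell line, culture medium, feeder layer or retinoic acid dose, and call the 3 samples biological and the arrays of a sample technical replicates, without saying whether each biological replicate was a culture of its own. The p-values measure the spread between the 3 samples, whose technical arrays were averaged. The comparison, part of a study of histone H4 acetylation at lysine 16 in differentiation, asks how these transcripts differ between both states.

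Pluripotency is the ability of a cell to form every tissue of the body. Pou5f1 encodes the POU factor Oct4, and Sox2 an HMG box factor that binds DNA beside it on composite sites. Both activate their own genes and Nanog, which encodes a homeodomain factor that steadies the undifferentiated state. Sall4 encodes a zinc finger factor that recruits the NuRD deacetylase complex and supports Pou5f1 expression, and Utf1 a chromatin-associated factor found in ES cells and germ cells and activated by Oct4 and Sox2. Retinoic acid, a ligand of nuclear receptors made from vitamin A, is a standard way to end self-renewal in ES cell culture.

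Start regions of the genes that fell are shown because retinoic acid receptors, orphan nuclear receptors and Oct4 with Sox2 are known to act on such regions. RefSeq (GRCm38.p6) start windows, of 250 bases before and 50 after an annotated start, were found for 4 of the 5 genes, and the upstream one of each gene is given.
Windows were searched on both strands for CATTGT (a Sox site), ATGCAAA (most of the octamer that POU factors bind), the composite of both on one strand with 1 base of any kind between them (which therefore overlaps its parts), AGGTCA (the half-site of nuclear receptors) and GGGCGG (the GC box). Capitals mark every match on either strand.
Pou5f1, chr17:35505782-35506081, plus strand: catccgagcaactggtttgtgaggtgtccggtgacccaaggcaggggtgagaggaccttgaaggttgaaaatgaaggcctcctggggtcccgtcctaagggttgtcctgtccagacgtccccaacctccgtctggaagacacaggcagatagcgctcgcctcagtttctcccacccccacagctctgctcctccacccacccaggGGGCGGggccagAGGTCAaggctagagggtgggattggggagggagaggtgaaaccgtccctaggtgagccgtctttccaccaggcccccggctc
Nanog, chr6:122707239-122707538, plus strand: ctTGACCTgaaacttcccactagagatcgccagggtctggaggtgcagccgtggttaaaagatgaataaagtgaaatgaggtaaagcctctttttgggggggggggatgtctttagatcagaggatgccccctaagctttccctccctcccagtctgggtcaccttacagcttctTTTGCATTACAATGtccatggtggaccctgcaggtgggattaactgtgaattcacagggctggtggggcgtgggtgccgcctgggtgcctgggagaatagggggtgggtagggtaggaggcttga
Sox2, chr3:34649745-34650044, plus strand: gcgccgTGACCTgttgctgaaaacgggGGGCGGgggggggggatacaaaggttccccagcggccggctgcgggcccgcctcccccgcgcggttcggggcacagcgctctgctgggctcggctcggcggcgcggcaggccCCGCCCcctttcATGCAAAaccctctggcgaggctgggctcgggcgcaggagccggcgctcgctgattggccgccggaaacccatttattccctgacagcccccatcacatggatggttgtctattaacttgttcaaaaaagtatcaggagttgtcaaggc
Utf1, chr7:139943606-139943905, plus strand: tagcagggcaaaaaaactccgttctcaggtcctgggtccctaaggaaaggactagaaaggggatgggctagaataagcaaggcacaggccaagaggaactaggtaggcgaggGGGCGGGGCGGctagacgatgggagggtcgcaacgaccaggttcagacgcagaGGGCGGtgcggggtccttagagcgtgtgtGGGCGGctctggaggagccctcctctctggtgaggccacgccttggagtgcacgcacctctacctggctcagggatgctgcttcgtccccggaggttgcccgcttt
The composite letters stand 75 bases before the start in the Nanog window, on the minus strand. They were found in 2 of 32851 windows (0.00609%), both of them windows of Nanog that overlap each other. Sox2 holds ATGCAAA 99 bases before its start, a match that 4.63% of all windows have. Pou5f1 holds AGGTCA 33 bases and GGGCGG 45 bases before its start. The half-site occurs in 16.3% of all windows and also in those of Nanog and Sox2, far from the start, while GGGCGG occurs in 35.7% of them, with 4 matches in the Utf1 window (a pair of them sharing a base) and 2 in that of Sox2. A lone CATTGT occurs in 12.6% of all windows. These matches describe the letters only.

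After retinoic acid 4 of the 5 genes fell, and Sall4 was not called. Genes were called with limma at an adjusted p under 0.05 over all 15326 genes tested, and 13.6% of those genes were called lower by this rule. All 6 probes were above the background limit (the level that 95% of the negative control spots stay under) on all 12 arrays. All values below are log2 of quantile-normalized intensity plus 50 unless a percentage is given, and intensities were not compared between probes. In bulk RNA, fewer expressing cells and less RNA per cell cannot be told apart.

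Pou5f1 had values of 8.59, 7.72 and 8.15 in retinoic acid replicates 1, 2 and 3, against 12.68, 11.97 and 13.98 in undifferentiated replicates 1, 2 and 3. The groups lay far apart, but the undifferentiated samples covered a range of 2.01, and replicate 2 was the lowest in both groups. The mean was 8.15 ± 0.43 after retinoic acid and 12.88 ± 1.02 in undifferentiated cells (SD, n = 3 each), a change of -4.72 ± 0.48 (SE; limma, adjusted p = 0.000285). Without the added 50, the intensity left after retinoic acid was 3.12% of the undifferentiated geometric mean, with 4.50%, 2.17% and 3.13% in the 3 samples. The remaining signal was still 7.50 to 13.8 times the background limit of its array. Only 11 of the 15326 genes had a more negative change.

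Nanog had values of 9.84, 10.32 and 9.69 after retinoic acid and of 13.26, 13.76 and 13.83 in undifferentiated cells. Here retinoic acid replicate 2 was the highest of its group, unlike for Pou5f1. The mean was 9.95 ± 0.33 after retinoic acid and 13.62 ± 0.31 in undifferentiated cells (SD, n = 3 each), and the change was -3.67 ± 0.23 (SE; limma, adjusted p = 3.51e-05). The signal left was 7.49% of the undifferentiated one, between 6.21% and 9.82% in the 3 samples, and 26.3 to 77.4 times the background limit. Technical arrays of a sample differed by up to 0.60 for this probe, the widest gap among the 6 probes.

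Sox2 had values of 10.20, 9.26 and 9.74 after retinoic acid and of 12.80, 12.57 and 12.97 in undifferentiated cells. Its undifferentiated samples lay close together, while the retinoic acid samples covered a range of 0.94. The mean was 9.73 ± 0.47 after retinoic acid and 12.78 ± 0.20 in undifferentiated cells (SD, n = 3 each), and the change was -3.05 ± 0.25 (SE; limma, adjusted p = 0.000101). The signal left was 11.5%, with 16.2%, 8.06% and 11.5% in retinoic acid replicates 1, 2 and 3. It stayed 26.9 to 47.2 times above the background limit. Sox2ot, a long RNA whose gene overlaps Sox2 in RefSeq and which was chosen after its values were seen, had values of 6.10, 6.28 and 6.08 after retinoic acid and of 7.33, 7.84 and 7.89 in undifferentiated cells. Its change was -1.54 ± 0.19 (SE; limma, adjusted p = 0.00075), with 3 of 6 retinoic acid arrays above background, so the size is understated. Its second probe changed by -0.75 (adjusted p = 0.0305 over probes), with 0 of 6 retinoic acid arrays above background, and its remaining probe was not tested.

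Utf1 had values of 7.63, 6.80 and 7.89 after retinoic acid and of 10.85, 8.56 and 10.97 in undifferentiated cells. The groups did not overlap, but undifferentiated replicate 2 lay 2.30 below the next sample of its group and 0.67 above the highest retinoic acid sample. The mean was 7.44 ± 0.57 after retinoic acid and 10.13 ± 1.36 in undifferentiated cells (SD, n = 3 each), and the change was -2.69 ± 0.63 (SE; limma, adjusted p = 0.0135). Leaving out undifferentiated replicate 1 ended the call (limma, -2.32, adjusted p = 0.0537), and leaving out undifferentiated replicate 2 gave a change of -3.47 (limma, adjusted p = 0.00052). Without undifferentiated replicate 3 it was -2.27. The signal left was 11.4% of the undifferentiated mean, from 5.83% to 17.9%, at 2.54 to 9.42 times the background limit.

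Sall4 kept most of its signal. Its brighter probe had values of 12.49, 12.36 and 12.76 after retinoic acid and of 13.11, 12.72 and 12.86 in undifferentiated cells, and the groups overlapped. The mean was 12.53 ± 0.20 after retinoic acid and 12.90 ± 0.19 in undifferentiated cells (SD, n = 3 each), with a difference of -0.36 ± 0.18 (SE; limma, adjusted p = 0.161) and a 95% interval of -0.78 to 0.05. The dimmer probe, of the same accession, had values of 9.40, 9.08 and 9.51 after retinoic acid and of 9.69, 9.96 and 9.39 in undifferentiated cells. It differed by -0.35 ± 0.20 (SE; limma over all 26587 probes tested, of which 11.5% were called lower; adjusted p = 0.256). Both probes thus retained similar shares, 77.6% on the brighter and 77.2% on the dimmer one. The call depended on the scaling: Sall4 was called lower when arrays were scaled to their 75th percentile (-0.75, adjusted p = 0.012) or their median (-0.72, adjusted p = 0.0205), settings under which the median over all genes moved to -0.09 and -0.06.

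**Figure D1:**
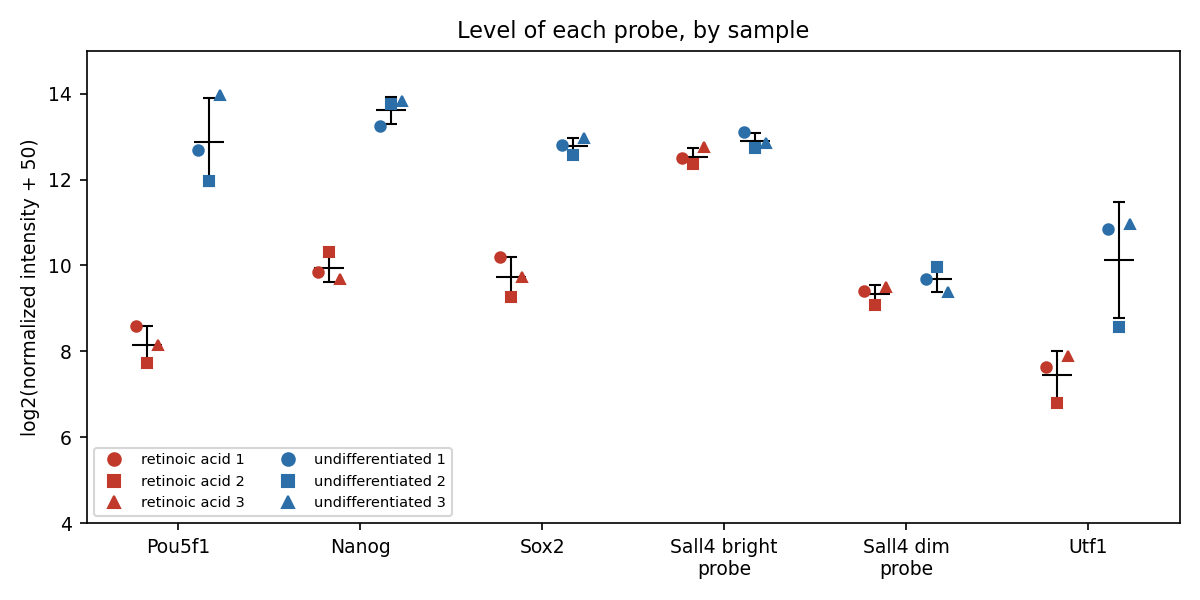
Level of each of the 6 probes on the scale log2(normalized intensity + 50), with 1 point per sample (technical arrays averaged) and mean ± SD in black (n = 3). Red points (retinoic acid) lie far below blue points (undifferentiated) for Pou5f1, Nanog and Sox2, undifferentiated replicate 2 of Utf1 lies toward its retinoic acid samples, and both Sall4 probes overlap.

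**Figure D2:**
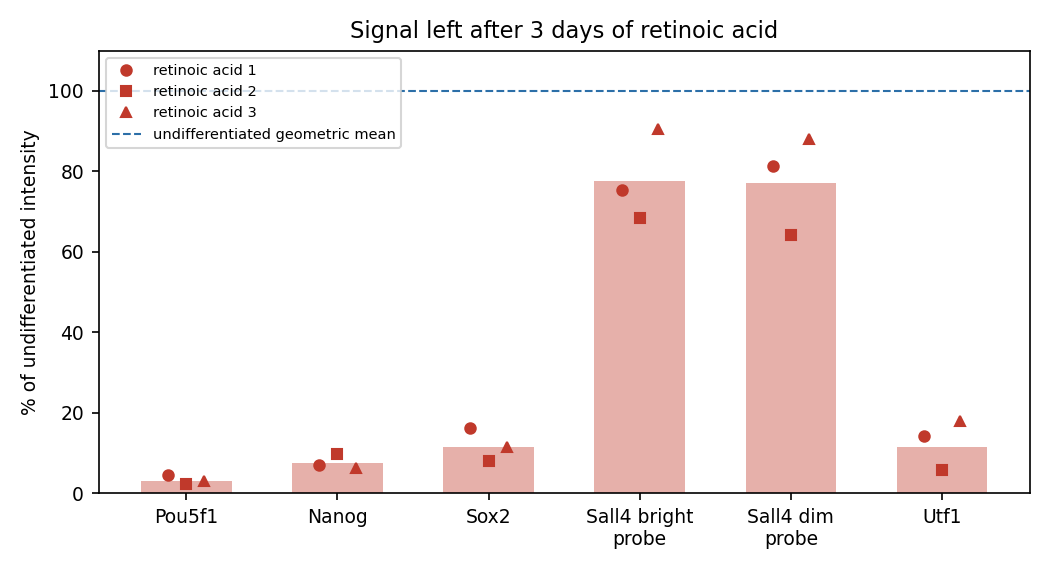
Intensity left after retinoic acid as a percentage of the undifferentiated geometric mean, without the added 50. Bars are the geometric mean of the 3 retinoic acid samples (from 3.12% for Pou5f1 to 77.6% for the brighter Sall4 probe), points the single samples, and the dashed line the undifferentiated mean.

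The falls were set against each other as within-sample log2 differences, for all 10 pairs of the 5 genes. With 3 samples against 3 the exact permutation test cannot go below p = 0.1, and after adjustment over the 10 pairs no pair went below 0.167. The differences were -4.36 ± 0.62 for Pou5f1 minus Sall4, -3.30 ± 0.41 for Nanog minus Sall4, -2.68 ± 0.28 for Sox2 minus Sall4 and 2.32 ± 0.74 for Sall4 minus Utf1, each with groups that did not overlap (two-sided exact p = 0.1, adjusted p = 0.167). The groups did not overlap either, with the same p, for Pou5f1 minus Sox2 (-1.68 ± 0.48) and Pou5f1 minus Utf1 (-2.03 ± 0.53). The other 4 pairs overlapped: Pou5f1 minus Nanog differed by -1.05 ± 0.70, Nanog minus Sox2 by -0.62 ± 0.48, Nanog minus Utf1 by -0.98 ± 1.01 and Sox2 minus Utf1 by -0.36 ± 0.72 (SE; two-sided exact p from 0.3 to 0.8). A probe's range of response enters these differences.

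The spread among undifferentiated samples was wide for Utf1 and Pou5f1. The SD of Utf1 there was 1.36 and that of Pou5f1 1.02, against a median SD of 0.26 over all genes tested, and 99.6% and 98.6% of genes had a smaller one. Nanog (0.31), Sox2 (0.20) and Sall4 (0.19) were near the median. After retinoic acid the SD was 0.57 for Utf1, 0.47 for Sox2, 0.43 for Pou5f1, 0.33 for Nanog and 0.20 for Sall4, against a median of 0.17. There 95.9%, 93.2%, 91.6%, 83.6% and 59.0% of genes had a smaller one. Technical arrays of a sample differed by at most 0.25 for Pou5f1 and 0.07 for Utf1, so the spread lay between samples and not between arrays of a sample. Undifferentiated replicate 2 was the lowest of its group for Pou5f1, Sox2, Utf1 and the brighter Sall4 probe, and retinoic acid replicate 2 for the same probes and the dimmer Sall4 probe. Undifferentiated replicate 2 was in the middle for Nanog and the highest for the dimmer Sall4 probe. The arrays of undifferentiated replicate 2 had the lowest background limits of the series (8.50 and 9.24, up to 51.6 on other arrays) and the highest shares of probes above them (80.0% and 85.0%, from 53.8% on other arrays). In the header of its second array the name of its first array stands. Without this sample the change of Pou5f1 was -5.18, without that array alone it was -4.76, and without undifferentiated replicate 3 it was -4.17.

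Genes whose profiles over the 6 samples were most like those of the members were named by the root mean square distance between mean-centred log2 values, among called genes with regular symbols. For Nanog they included Manba, a lysosomal mannosidase (distance 0.16), and Rasgrp2 (0.21), with changes of -3.40 and -3.77. For Sox2 they were Klf5, a Krüppel-like factor (0.23), Etv4, an ETS factor downstream of FGF signalling (0.25), and Spry2, an inhibitor of that pathway (0.25), which changed by -3.21, -3.25 and -2.78. The distances were wider for Pou5f1, with Triml1 (0.47), the Nodal antagonist Lefty2 (0.49) and Lrrc2 (0.49), and for Utf1, with Gpa33 (0.42), Zfp943 (0.56) and Zfp984 (0.57). Lrrc2, which 0 of 6 retinoic acid arrays measured above background, was at least 49.7-fold lower. Like Utf1, Zfp943 was lowest in undifferentiated replicate 2, with values of 11.07, 9.39 and 11.32 in the 3 undifferentiated samples. Without that sample Zfp943 changed by -2.75 and Zfp984 by -2.95, against -2.15 and -2.38 with it. Nearest to Sall4 were Map2k1, which encodes the kinase MEK1 (0.10), Wdyhv1 (0.12) and Fxyd2 (0.13), with changes of -0.49, -0.51 and -0.46 whose calls were lost in 14, 12 and 10 alternatives. Fxyd2 was above background on 2 of 6 retinoic acid arrays, and its size rests on the number added before log2 (-1.20 with 1 added). Second probes gave -1.57 and -0.52 for Rasgrp2, -0.88 for Spry2 and -1.67 for Triml1, of which those of Spry2 and Triml1 and the dimmer one of Rasgrp2 were not called.

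Other transcription factors of the ES cell network fell in the same samples. Of 20 on the list 19 were tested, 17 fell, 2 rose and 0 were not called, with a median change of -2.35 against 0.0035 over all genes tested. With the second brightest probe of each gene, 12 network factors were called lower. Nr0b1 (Dax1), a nuclear receptor that binds Oct4, had values of 6.91, 6.94 and 7.07 after retinoic acid and of 13.28, 13.49 and 13.17 in undifferentiated cells, a change of -6.34. Esrrb, an orphan nuclear receptor that acts with Nanog, changed by -4.86 (-0.59 on a dim second probe). Zfp42 (Rex1), a classical marker of undifferentiated ES cells, changed by -4.10 and reached a net intensity close to the brightest spots of its arrays, so its size is approximate. Gbx2, a homeobox factor also used in the neural plate, rose by 1.36, and Thap11 (Ronin) was called higher by 0.68, a call that ended under both other scalings and when retinoic acid replicate 1 or 3 was left out. Of all genes tested 13.6% were called lower, 18.7% higher and 32.3% in either direction.

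Genes known as direct targets of Oct4 and Sox2 mostly fell as well. Of 17 on the list 16 were tested, 14 fell, 0 rose and 2 were not called, with a median of -2.77. Over all genes tested 13.6% were called lower and 18.7% higher. Tdgf1, the Nodal co-receptor Cripto, changed by -5.83 ± 0.76 (SE), by -6.59 without undifferentiated replicate 2 and by -4.83 without undifferentiated replicate 3. Its values were 6.46, 6.35 and 6.40 after retinoic acid and 11.75, 10.71 and 14.24 in undifferentiated cells, so that it was lowest in undifferentiated replicate 2 and highest in replicate 3, as Pou5f1 was. Tcl1, a co-activator of the kinase Akt, changed by -5.08. The genes not called, named after their values were seen, were Spp1, which encodes osteopontin (-0.16), and Dppa5a, an RNA-binding protein of early embryos (-0.32). Dppa5a, too, came close to the brightest spots (up to 45981 in net intensity), and its second probe changed by -0.87 (limma, adjusted p = 0.0161 over probes). The lists of network factors and of targets share 7 genes, Zfp42 and Esrrb among them.

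Among factors reported to act against Pou5f1 or Nanog, 6 of 12 tested rose, Dnmt3b fell and 5 were not called, with a median of 0.77. The shares over all genes tested were 18.7% higher and 13.6% lower. Nr6a1 (GCNF), an orphan receptor that silences Pou5f1 during differentiation, had values of 11.31, 11.58 and 11.49 after retinoic acid and of 9.64, 10.24 and 9.69 in undifferentiated cells, a rise of 1.61 ± 0.20 (SE; limma, adjusted p = 0.000763). Nr2f2 (COUP-TFII), a receptor able to bind the Pou5f1 promoter, rose by 5.75 on its brightest probe and by 5.0 and 0.997 on the others, with 3 of 6 undifferentiated arrays above background for the brightest. Its change was 3.91 as the mean of its probes and 7.61 with 1 added before log2. Nr2f1 (COUP-TFI), measured above background by 0 of 6 undifferentiated arrays, was at least 13.0-fold higher. Gata6, the primitive endoderm factor that opposes Nanog, rose by 4.11 (1.51 on a second probe), and Cdx2, the trophoblast factor that opposes Oct4, by 1.17, with 2 of 6 undifferentiated arrays above background. Dnmt3b, a DNA methyltransferase that adds methylation to the silenced genes, changed by -1.80.

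Proteins that bind Oct4, Nanog or Sall4, among them the NuRD subunits, were counted in the same way. Of 24 tested 8 fell (33.3%), 3 rose (12.5%) and 13 were not called, with a median of -0.25. Of all genes tested 13.6% were called lower, 18.7% higher and 32.3% in either direction. The share of partners called lower was thus above that of all genes, and the share called higher, from 3 genes, was near it. Those that fell furthest were Nr0b1, the corepressor Ctbp2 (-1.66) and the telomere-associated factor Rif1 (-1.24), whose call ended when retinoic acid replicate 1 or 3 was left out. The NuRD subunits Mta1 (0.69) and Rbbp7 (0.66) and the remodelling ATPase Smarca4 (0.63) were called higher, and under both other scalings none of the 24 was. The call of Smarca4 was lost in 13 alternatives, and its second probe was not called (0.35, limma, adjusted p = 0.145 over probes). The NuRD subunit Hdac2, named after its values were seen, was called lower (-0.83, limma, adjusted p = 0.0447). The NuRD subunits on the list other than Mta1, Rbbp7 and Hdac2 were not called on their brightest probes. A dimmer probe of Rbbp4, named after its values were seen, was called lower (-0.76, limma, adjusted p = 0.0299 over probes). The other Rbbp4 probes were not called. The partners called lower numbered 3 without retinoic acid replicate 1, 4 without undifferentiated replicate 1 and 5 without retinoic acid replicate 2 or 3.

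Close relatives of the members were also measured. Of 13 POU family genes on the array besides Pou5f1, 9 were tested, and 0 were called (median -0.06). Among all genes tested 32.3% were called, 13.6% lower and 18.7% higher. A second probe of Pou4f1, singled out after its values were seen, was called higher (0.60, limma, adjusted p = 0.0389 over probes). Of the SoxB genes and Sox15, 3 were tested, Sox15 (-1.25) and Sox21 (-1.43) fell, and second probes of Sox21 were not called (-0.25 and -0.58). Sall2, a zinc finger relative of Sall4 found in neural tissue, had values of 9.99, 9.87 and 9.99 after retinoic acid and of 7.91, 7.48 and 7.40 in undifferentiated cells, a rise of 2.35 ± 0.18 (SE; limma, adjusted p = 6.9e-05). Sall1 was called lower (-0.74), a call lost in 10 alternatives, and the remaining relative, Sall3, was not called. RefSeq lists 7 pseudogenes of Pou5f1 and 2 of Nanog, for which the array names no probe, and whether such transcripts add to the signal was not tested.

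**Figure D3:**
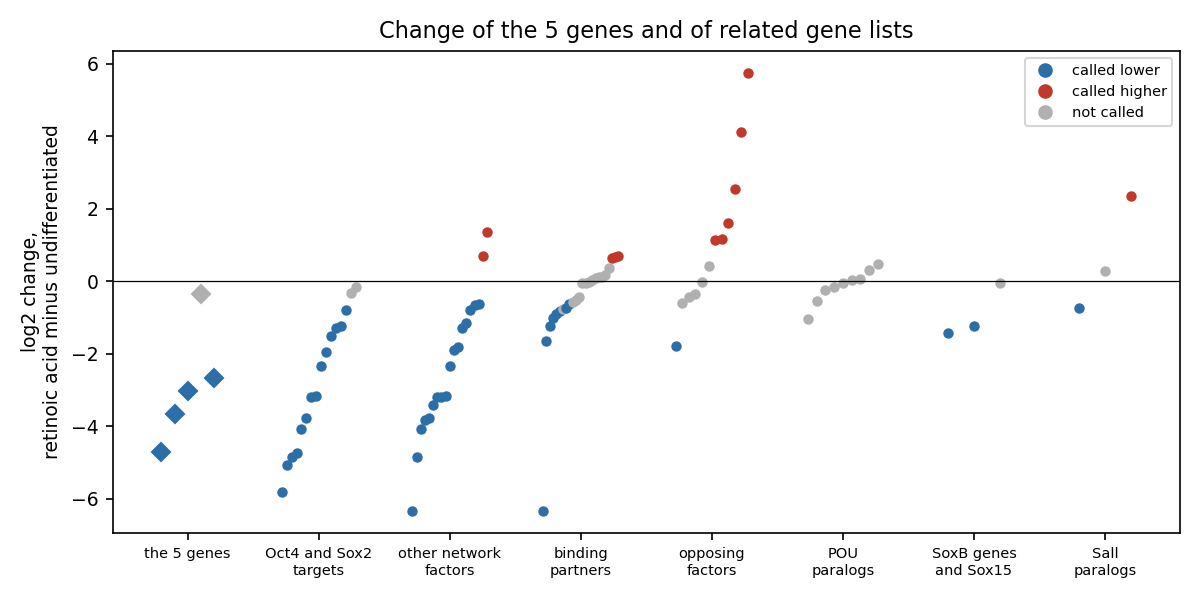
Log2 change, retinoic acid minus undifferentiated, of the 5 genes (diamonds) and of the tested genes of each list (circles, sorted within a list). Colour gives the call at an adjusted p under 0.05: 14 of 16 targets and 17 of 19 network factors were lower, 6 of 12 opposing factors were higher, and 0 of 9 POU relatives were called. Over all genes tested 13.6% were lower and 18.7% higher.

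Markers of other cell types were counted in the same comparison. Of fibroblast markers 8 of 11 tested rose and 1 fell, and of endoderm markers 8 of 12 rose and 0 fell. Of trophoblast markers 7 of 11 rose and 1 fell, and of neural markers 2 of 11 rose and 3 fell. Of all genes tested 18.7% were called higher and 13.6% lower. The share called higher was 72.7% for fibroblast, 66.7% for endoderm and 63.6% for trophoblast markers, but 18.2% for neural ones, near that of all genes. The markers named here were picked after their values were seen. Each sum below adds the probes of a list within a sample and is set only against the same sum in other samples. Summed fibroblast intensities ran from 27925 to 29020 in retinoic acid samples, against 4913 to 10071 in undifferentiated samples. Tagln and Vim, which are not confined to fibroblasts, made up most of the retinoic acid sum, and Vim most of the undifferentiated one. Their means were 13.70 and 13.43 after retinoic acid and 8.45 and 12.23 in undifferentiated cells. Endoderm markers summed to between 15989 and 21615 after retinoic acid, against 3618 to 4352 in undifferentiated cells. Trophoblast markers summed to between 55971 and 63026 after retinoic acid, against 4488 to 6332 in undifferentiated cells. The keratins Krt8 and Krt18, found in simple epithelia at large, had means of 14.05 and 15.03 after retinoic acid and of 9.41 and 10.25 in undifferentiated cells, and made up most of the retinoic acid sum, with Krt18 close to the brightest spots. The other trophoblast markers called higher were Krt19 (5.15), Krt7 (4.20), Gata3 (3.60), Cdx2 (1.17) and Plac1 (0.90). Eomes, Hand1 and Ascl2 were not called, and Tfap2c changed by -3.08. The fibroblast marker called lower was Thy1 (-2.07). Col1a1 (-0.38) and S100a4 (-0.53) were not called, though a second probe of Col1a1 was called higher (0.57, limma, adjusted p = 0.0304 over probes). The neural sums were 5999 to 6342 after retinoic acid and 8227 to 11831 in undifferentiated cells. Stmn2, a neuronal microtubule regulator, had the largest change of the neural list, with means of 7.34 after retinoic acid and 12.31 in undifferentiated cells. Elavl3 (-1.61) and Neurod1 also fell, while the progenitor factors Pax6 (1.71) and Msx1 (3.07) rose on their brightest probes. The second probe of Msx1 was called lower (-0.53, limma, adjusted p = 0.0483 over probes), and that of Pax6 was not called (-0.25). No marker tested was at background on all undifferentiated arrays, and Neurod1 alone was on all retinoic acid arrays. The part of such cells in the falls of the core genes was not tested.

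The calls of Pou5f1, Nanog and Sox2 were the same in all 22 alternatives. These genes have no second probe, so the alternatives on the choice of probe repeated their reported changes and could not test that choice. The change of Pou5f1 ran from -5.18 to -4.17, that of Nanog from -3.91 to -3.54 and that of Sox2 from -3.30 to -2.81, and their highest adjusted p were 0.00228, 0.000484 and 0.00115. In 20.8% of all genes tested the 3 retinoic acid samples lay below the 3 undifferentiated ones, as they did for Pou5f1, Nanog, Sox2 and Utf1.

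**Figure D4:**
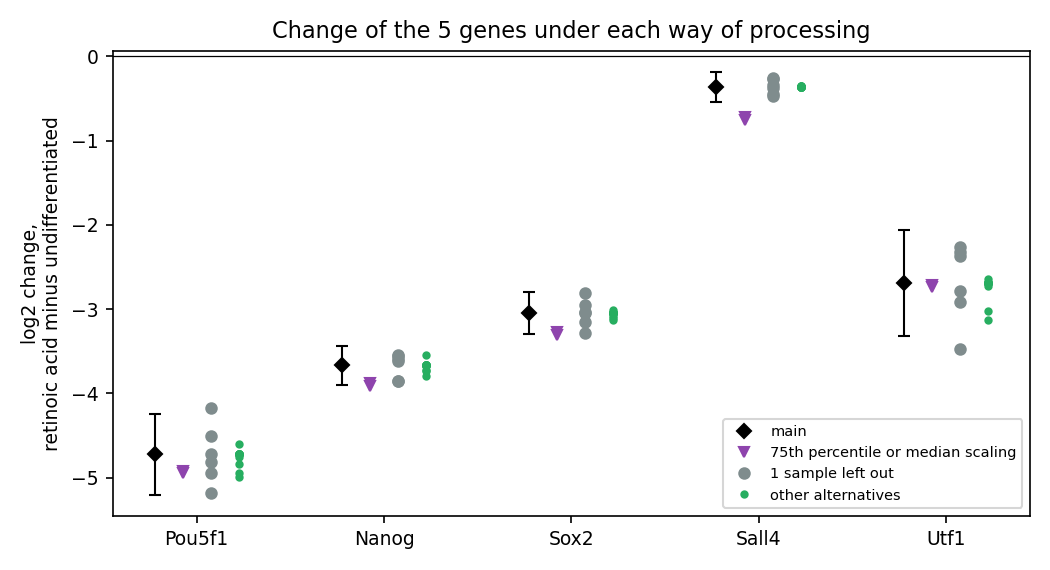
Log2 change of each gene as reported (black diamonds, ± SE) and under the 22 alternatives, by kind. The points of Pou5f1, Nanog and Sox2 stay between -5.18 and -2.81, Utf1 spreads from -3.47 to -2.27 with the sample left out, and Sall4 moves to -0.75 and -0.72 with the other scalings.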

How the data were processed

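Total RNA was amplified and labelled with Cy3, and the product was hybridised to 12 1-colour arrays. Per the file headers, the deposited scanner tables hold net spot intensity, linear, with the background already subtracted by a method that no source used here gives. R 2.15.0 and limma are named by the submitters' processing notes, and the authors' processed intensity of 41173 probes, quantile-normalized by its values, was 1 of the alternatives.

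Gene names came from accession, symbol or older symbol in RefSeq (GRCm38.p6), and each gene is represented by its brightest probe. Intensities were quantile-normalized, 50 was added and log2 taken, which understates changes of dim genes. A gene was tested when above the 95th percentile of 27 negative control spots (8.50 to 51.6 by array) on at least 4 of 6 arrays of either group. Technical arrays were averaged and groups compared with limma 3.58.1 (lmFit, eBayes, two-sided, Benjamini-Hochberg) in R 4.3.3, which was tested on simulated data; figures used Python 3.11.15 and matplotlib 3.10.9. The number of samples, 3 per group, limits the precision. An "at least" fold takes the mean of the bright group over a floor for the dim one, namely whichever is higher on each array, the gene's signal or the lowest signal that passed the limit.

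Members, lists and alternatives were chosen with earlier results of these data known. Named genes were the 5 members, up to 3 called genes per list and direction with the largest change (from partners, network factors, targets, opposing factors and relatives), the 3 nearest profiles per member, and Zfp42, Nr6a1, Nr2f2, Gata6 and Cdx2; Fgf4 was also chosen and was not analysed here, and 1 gene near Nanog in profile is not reported here. Genes outside this rule (Sox2ot, Spp1, Dppa5a, Hdac2, the Pou4f1 and Rbbp4 probes, Sall3 and the cell type markers) were named after their values were seen. Replicate numbers were not taken to pair samples, since same-numbered samples did not all deviate together.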

Additional observations from a re-analysis of the deposited data

How the results depend on the processing

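Of 22 alternatives, Pou5f1, Nanog and Sox2 kept direction and call in 22, and Sall4 and Utf1 in 20 each. For Pou5f1, Nanog, Sox2 and Utf1, which have no second probe, the mean of the probes and the second brightest probe repeated the reported change. Scaling arrays to the 75th percentile called Sall4 lower (-0.75), with 0 partners higher, 1 network factor higher and 3 opposing factors lower, and scaling to the median called it lower too (-0.72), with 0 partners higher, 1 network factor higher and 2 opposing factors lower. Of all calls, 48.1% and 51.6% were higher under these scalings, against 58.0% as reported. Partners called lower numbered 5 with no filter and 5 with the second brightest probe, opposing factors called higher 3 with genes above background on all 12 arrays, and opposing factors called lower 2 with the sample as a random block. Network factors called lower numbered 12 with the second brightest probe. At an adjusted p under 0.01, Utf1 (-2.69) was not called, 1114 genes were lower and 1784 higher, with 2 partners lower, 0 partners higher and 1 network factor higher. Leaving out 1 sample at a time, Utf1 ran from -3.47 to -2.27, genes called lower from 1228 (without retinoic acid replicate 3) to 2108, partners lower from 3 to 8, partners higher from 0 to 3, network factors higher from 1 to 2, opposing factors lower from 1 to 3, and Spp1 from -0.28 to 0.00398. Without retinoic acid replicate 1, 1326 genes were called lower. With the replicate number as a block, Sall4 was not called (adjusted p = 0.152), 2040 genes were lower and 2849 higher, and 1 partner was higher; same-numbered samples correlated at -0.06, 0.22 and 0.07. For the other named genes, 784 results kept call and direction, 84 lost the call, 2 gained it and 1 reversed. The causes of these differences were not tested. The signal of Utf1 was 2.54 to 9.42 times the background limit after retinoic acid and 25.0 to 95.1 times in undifferentiated cells.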
